A study of Mus musculus with 6 samples.

Results

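The genes described here form a list of 42 DNA damage response and repair genes, which was drawn up by name and not by any DNA methylation value. Earlier results of these data were, however, known when the genes were chosen. Of these genes, 41 were among the 31751 genes of the deposited table. *Trp53* had no site there and was not analysed here, and *H2afx*, which the table names *H2ax*, was matched by its gene identifier. The list has 1285 CpG sites that were read 10 or more times in each of the 6 samples, which are called common sites here, of 3409 sites in the table (37.7%). Over all genes, 681804 of 2268080 sites (30.1%) were common.

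Cells meet DNA damage with sensors that recognize the lesion, kinases that pass on the signal, and repair pathways that act on particular kinds of damage. Double-strand breaks are joined by homologous recombination or end joining, whereas damaged bases, bulky adducts, and mismatches are removed by excision pathways. The p53 protein and its targets arrest the cell cycle or start apoptosis, and in the germline this response decides which damaged cells persist. Promoters with many CpG sites are mostly unmethylated in mammalian cells, and methylation there is commonly associated with silencing, as is known for *Brca1* and *Mgmt* in tumors.

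DNA methylation was measured by reduced representation bisulfite sequencing (RRBS) in GS cells, a culture of spermatogonia with spermatogonial stem cells among them, and the groups were Space GS cells (named Space 1 to 3 here) and Ground GS cells (Ground 1 to 3). Both groups had the genotype DBA/Tg14(act-EGFP-OsbY01), an EGFP transgene from a C57BL6 line that was bred into DBA/2, and both were frozen for 6 months, either on the International Space Station or on Earth. They were analysed 14 days after thawing, after 2 passages, so cells that died or were lost before then were not measured. GS cells are grown on mouse embryonic fibroblasts, and since the transgene is driven by an actin promoter, it does not separate stem cells from progenitors. The comparison addresses the question of whether storage under cosmic radiation left a mark on the DNA methylation of these genes. The labels call the samples biological replicates without saying whether they came from separate cultures. The p-values of the main tests rest on the spread between these samples, moderated toward that of all features tested. In this moderation, the other features carry more weight than a feature's own samples.

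RRBS reads CpG-rich fragments that begin and end at cuts of MspI, which cuts at CCGG, so the sequence near a gene bears on whether its promoter can be read. Promoter sequences of 32 of the 42 genes were found in RefSeq (GRCm38.p6). In the 250 bases before the transcription start site (TSS), these genes had a median of 18 CG, from 5 to 37, compared with a median of 6 over 27025 genes. CCGG, which reads the same on both strands, was found in these bases in 26 of the 32 genes (81.2%) and in 48.6% of all genes. These bases alone did not decide what was read. For example, *Atr* and *Bax* had 0 CCGG there but 36 and 21 common sites within 1000 bp of the TSS. *Lig4*, with up to 5 CCGG, had 0 such sites. The 250 bases before the TSS are shown for *Brca1*, *Xrcc4*, and *Xrcc1*, whose promoters had the smallest p-values in the comparison of groups, and for *Mdm2*, the inhibitor of p53, which had a CG-rich promoter with a level near 1% in every sample. They are written 5′ to 3′ along the gene, with each CG in capitals.
Brca1, chr11:101551956-101552205, minus strand, 12 CG: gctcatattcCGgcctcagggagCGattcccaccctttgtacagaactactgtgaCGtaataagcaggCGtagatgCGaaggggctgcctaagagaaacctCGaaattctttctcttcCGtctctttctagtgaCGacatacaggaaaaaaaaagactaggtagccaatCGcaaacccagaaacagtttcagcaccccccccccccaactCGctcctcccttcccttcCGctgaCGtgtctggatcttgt
Xrcc4, chr13:90089609-90089858, minus strand, 26 CG: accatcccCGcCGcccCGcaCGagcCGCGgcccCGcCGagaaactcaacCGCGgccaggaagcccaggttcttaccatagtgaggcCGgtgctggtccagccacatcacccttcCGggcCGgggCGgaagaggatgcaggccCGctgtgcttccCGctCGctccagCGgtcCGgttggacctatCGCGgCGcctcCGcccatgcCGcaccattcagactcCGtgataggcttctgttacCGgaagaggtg
Xrcc1, chr7:24546449-24546698, plus strand, 5 CG: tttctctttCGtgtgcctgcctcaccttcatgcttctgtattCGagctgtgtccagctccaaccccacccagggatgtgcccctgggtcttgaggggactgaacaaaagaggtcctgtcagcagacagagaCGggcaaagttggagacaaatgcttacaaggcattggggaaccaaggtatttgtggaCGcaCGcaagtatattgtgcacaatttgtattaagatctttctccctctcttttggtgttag
Mdm2, chr10:117710759-117711008, minus strand, 29 CG: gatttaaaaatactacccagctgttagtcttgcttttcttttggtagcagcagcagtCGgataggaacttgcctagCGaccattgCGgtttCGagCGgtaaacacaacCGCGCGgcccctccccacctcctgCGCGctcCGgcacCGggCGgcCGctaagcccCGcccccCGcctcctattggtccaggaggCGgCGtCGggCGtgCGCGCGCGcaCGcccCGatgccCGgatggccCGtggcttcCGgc

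The measured sites lay at different places relative to these bases. The common sites of *Xrcc4* lay from 337 bp upstream to 71 bp downstream of the TSS, whereas those of *Brca1* lay 45 to 312 bp downstream of it. In *Xrcc1*, whose upstream bases have few CG and 0 CCGG, most common sites lay 773 to 1014 bp downstream. All other positions here are in mm39, the build of the deposited table, and distances are from the TSS that the table gives, which can differ from the RefSeq TSS. Exons and introns were not assigned, because the reference used here is of another build.

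Summed over sites, each sample had about 28536000 to 33743800 reads, and the median coverage of the common sites of the listed genes was 28 to 34 reads. Pairs of samples were as far apart within groups (chi-square per degree of freedom, 1.35 to 1.46) as between groups (1.35 to 1.46). The germ cell state was examined at promoters that are unmethylated in germ cells but methylated in most somatic cells (such as *Dazl* and *Ddx4*), where 6 of 8 could be measured and their levels were 0% to 7.26%. Maternally methylated imprinted promoters, which are unmethylated in male germ cells but methylated on 1 of the 2 copies in fibroblasts, had levels of 0% to 6.12% in the 5 of 8 that could be measured. The mean over the latter promoters was 0.656% to 2.53% in the Space samples and 1.24% to 2.63% in the Ground samples.

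DNA methylation near the TSS, within 1000 bp, was low at all common sites of the listed genes. Each of the 829 common sites there had a mean level under 10% over the 6 samples, and 115 of these sites had 0 methylated reads in any sample. Over all genes, 98.7% of the 390568 common sites within 1000 bp of a TSS had a mean level under 10%. For each gene with 3 or more such sites, the reads of these sites were summed in each sample, and the methylated percent of these reads is called the promoter level. A promoter level was obtained for 31 listed genes, all of which averaged under 10% (95.3% of all 14361 promoters), and 29 of which were under 10% in every sample (92.9% of all promoters). Of the remaining genes, 1 (*Palb2*) had fewer than 3 common sites near the TSS and 9 had none. The exceptions to a level under 10% were *Brca1*, with 12.1% in Ground 1, and *Rad54l*, a motor protein of homologous recombination, with 10.2% in Space 2.

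**Figure D1:**
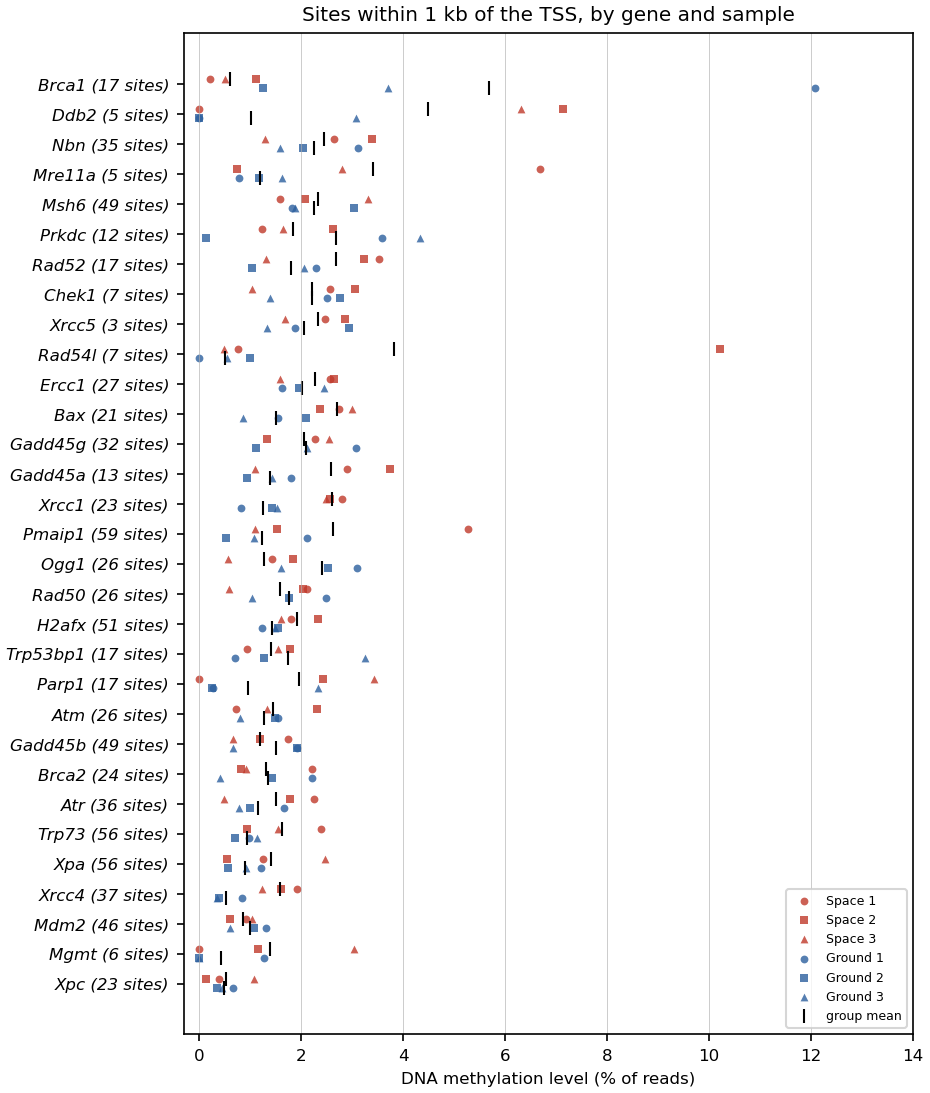
Promoter level (percent of reads methylated, x axis) of the 31 genes with 3 or more common sites within 1000 bp of the TSS, ordered by mean level, with the number of sites in parentheses. Points are the 6 samples, black ticks are the means of 3 replicates, and the 2 points above 10% are *Brca1* in Ground 1 (12.1%) and *Rad54l* in Space 2 (10.2%).

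No promoter of a listed gene passed the test between Space and Ground GS cells. The quasi-binomial test, run on methylated reads out of all reads, moderated with limma and adjusted by the Benjamini-Hochberg method over all 14361 promoters, called 0 promoters (percent called, 0), and the smallest adjusted p was 0.912. At an unadjusted p under 0.05, it gave 3 of the 31 genes (9.68%), which were *Brca1*, *Xrcc4*, and *Xrcc1*, beside 763 of all promoters (5.31%). The quasi-likelihood test of edgeR gave 0 calls, with 2 of the 31 genes and 572 of all promoters at an unadjusted p under 0.05, and limma on log2 ratios gave 0 calls, with 2 and 666. The mean level was higher in the Space samples for 21 of the 31 genes (54.3% of all promoters). The median difference, Space minus Ground, was 0.280 percentage points over the 31 genes and 0.0892 over all promoters, and the median absolute difference was 0.517 and 0.598 percentage points. Samples of the groups did not overlap at 4 promoters with Space above Ground (5.69% of all promoters) and at 1 with Space below (3.86%). With 3 samples against 3, an exact permutation test (two-sided) gives p = 0.1 for such a gene, the smallest p that it allows.

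**Figure D2:**
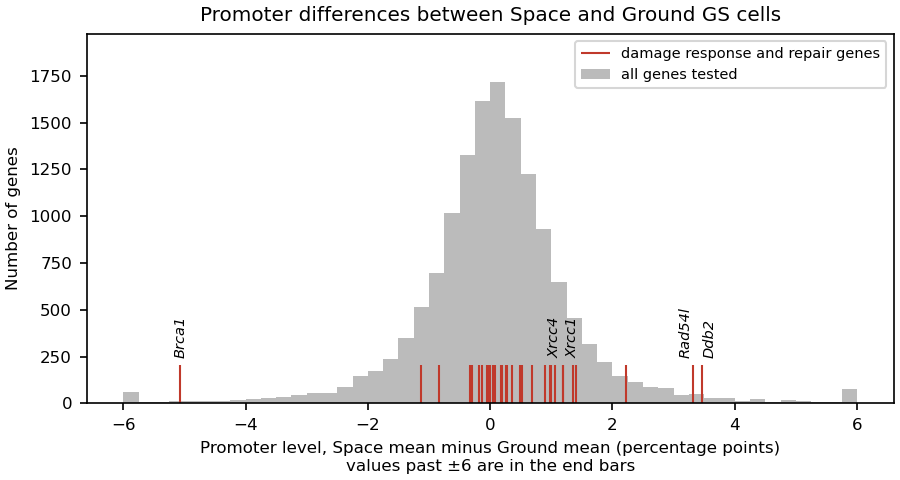
Difference in promoter level (Space mean minus Ground mean, percentage points) on the x axis and number of genes on the y axis, for all 14361 promoters (gray bars) and the 31 listed genes (red lines). The listed genes lie between −5.07 (*Brca1*) and 3.46 (*Ddb2*), and the others are mostly near 0.

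When the 31 genes were given equal weight, the mean promoter level was 1.95%, 2.33%, and 1.73% in Space 1 to 3 and 1.95%, 1.28%, and 1.51% in Ground 1 to 3. The group means were 2.00% ± 0.302 and 1.58% ± 0.339 (SD, n = 3), and the samples of the groups overlapped. The difference of 0.420 percentage points became 0.257 without Space 2 and 0.604 without Ground 1. Over all promoters, the difference was 0.0962 percentage points.

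Among genes of homologous recombination, which copies the sister chromatid to mend a break, the largest difference was found in *Brca1* (ENSMUSG00000017146, TSS at 101442781 on the minus strand of chromosome 11), which helps to load the recombinase. Its 17 sites had levels of 0.209%, 1.13%, and 0.501% in Space 1 to 3 and 12.1%, 1.26%, and 3.70% in Ground 1 to 3. The groups did not overlap, but Ground 2 was close to the highest Space sample, and Ground 1 stood apart. The difference was −5.07 percentage points (95% interval, −8.50 to −1.16; quasi-binomial test with limma, p = 0.00943, adjusted p = 0.912). It became −1.87 without Ground 1. At the germ cell promoters named above, the mean level was 3.48% in Ground 1 and 1.52% to 2.97% in the other samples. At the maternally methylated imprinted promoters, it was 1.97% in Ground 1 and 0.656% to 2.63% in the other samples. The part of either in the result was not tested. An absolute difference larger than that of *Brca1* was found at 1.31% of all promoters.

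At single sites, the difference of *Brca1* rested on few reads. In the 14 sites 45 to 177 bp downstream of the TSS, 14.6% of reads were methylated in Ground 1, compared with 0%, 1.44%, and 0% in Space 1 to 3 and 0% and 1.81% in Ground 2 and 3. At 13 of these sites, Ground 1 had 3 methylated reads of 22 (13.6%, 95% Wilson interval, 4.75% to 33.3%). Sites of 1 fragment share reads, so the same 3 reads may be counted at each site. In the 3 sites 260 to 312 bp downstream, the levels were 0.709%, 0%, and 1.67% in the Space samples and 2.47%, 7.14%, and 8.82% in the Ground samples, and here Ground 1 was the lowest of its group. The Wilson interval covers counting error only, and reads may include copies of 1 molecule.

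**Figure D3:**
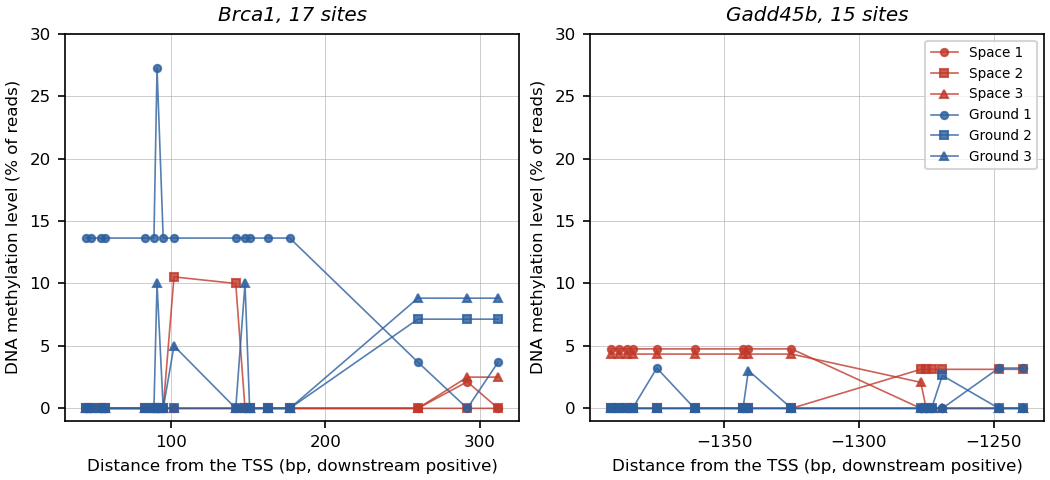
DNA methylation level of each common site (percent of reads, y axis) against its distance from the TSS (bp, x axis) for the 17 sites of *Brca1* and 15 upstream sites of *Gadd45b*, with 1 line for each sample. In *Brca1*, Ground 1 runs flat at 13.6% over 13 sites, and in *Gadd45b*, Space 1 and 3 run flat at under 5% over the 9 farthest sites.

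Other genes of this pathway showed smaller or more scattered values. *Rad54l* had 0.772%, 10.2%, and 0.493% in the Space samples and 0%, 0.99%, and 0.552% in the Ground samples over 7 sites, and only Space 2 was above 1%. *Brca2*, which delivers the recombinase to the break, had 1.32% ± 0.773 in the Space samples and 1.35% ± 0.902 in the Ground samples (SD, n = 3). *Rad52* had 2.69% ± 1.21 and 1.80% ± 0.660. *Palb2*, the partner of *Brca2*, had only 1 common site, with a level of 0% to 3.70%, and *Fancd2* had none.

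In end joining, which ligates broken ends without a template, *Xrcc4* (ENSMUSG00000021615, TSS at 90237727 on the minus strand of chromosome 13) had the second smallest p-value. Its product holds the ligase at the break. Over 37 sites, its levels were 1.92%, 1.60%, and 1.24% in the Space samples and 0.835%, 0.401%, and 0.344% in the Ground samples. All Space samples were above all Ground samples, although none reached 2%. The difference was 1.06 percentage points (95% interval, 0.146 to 1.96; adjusted p = 0.912 in the limma-moderated test). The reads behind it were few, with 16 to 24 methylated of 1251 to 1289 in Space samples and 4 to 10 of 1164 to 1246 in Ground samples. These are sums over the 37 sites, at 31.5 to 34.8 reads per site.

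*Prkdc*, the catalytic subunit of the DNA-dependent protein kinase, had 1.23%, 2.64%, and 1.65% in the Space samples and 3.59%, 0.132%, and 4.33% in the Ground samples over 12 sites. The Ground samples surrounded the Space samples, and the difference was −0.845 percentage points (95% interval, −2.87 to 1.53; adjusted p = 0.983). It became −2.12 without Ground 2 and −0.0209 without Ground 3. *Xrcc5*, a subunit of the Ku complex that binds broken ends, had 2.34% ± 0.597 and 2.06% ± 0.813 (SD, n = 3) over 3 sites. *Xrcc6*, the other Ku subunit, and *Lig4*, the ligase, had no common site within 1000 bp.

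In base excision repair, which replaces single damaged bases, *Xrcc1* and *Ogg1* differed in opposite directions. *Xrcc1* (ENSMUSG00000051768, TSS at 24245714 on the plus strand of chromosome 7) encodes the scaffold for the ligation step. Its 23 sites had 2.80%, 2.56%, and 2.48% in the Space samples and 0.814%, 1.43%, and 1.54% in the Ground samples. The groups did not overlap, and the difference was 1.35 percentage points (95% interval, 0.0283 to 2.69; adjusted p = 0.923). The 3 sites nearest the TSS, 107 to 133 bp downstream, went the other way and overlapped. They had 2.50%, 0%, and 0.833% in the Space samples and 4.17%, 0%, and 2.68% in the Ground samples. *Ogg1*, the glycosylase for oxidized guanine, had 1.42%, 1.84%, and 0.559% in the Space samples and 3.10%, 2.53%, and 1.61% in the Ground samples. The groups overlapped, since Space 2 was above Ground 3, and the difference was −1.14 percentage points (95% interval, −2.65 to 0.351; adjusted p = 0.928). With a minimum of 20 reads, the difference of *Ogg1* was 0.195. *Parp1*, a sensor of strand breaks, had 0%, 2.44%, and 3.42% in the Space samples and 0.271%, 0.253%, and 2.34% in the Ground samples, with a difference of 1.0002 percentage points and an adjusted p of 0.952. The difference became 0.266 without Space 3 and 1.98 without Space 1. Both groups of *Parp1* ranged from under 1% to above 2%. *Apex1*, the endonuclease of this pathway, had common sites beyond 1000 bp only, and the glycosylase *Mutyh* had none.

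In nucleotide excision repair, which cuts out bulky lesions, all 4 promoters had a higher mean in the Space samples, and none had an unadjusted p under 0.05. *Ddb2*, which finds ultraviolet lesions, had the largest difference upward, 3.46 percentage points (95% interval, −2.33 to 8.78; adjusted p = 0.941), from only 5 sites. Its levels were 0%, 7.14%, and 6.32% in the Space samples and 0%, 0%, and 3.08% in the Ground samples, and the groups overlapped. The recognition factor *Xpc* had the lowest mean level of all 31 promoters, 0.515%. *Xpa* and *Ercc1*, which verify and cut the damaged strand, had differences of 0.517 and 0.252 percentage points.

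*Mgmt*, which removes alkyl groups from guanine, had 0%, 1.16%, and 3.03% in the Space samples and 1.28%, 0%, and 0% in the Ground samples. These levels rest on 0 to 2 methylated reads of 66 to 120 in each sample, summed over 6 sites with 11 to 20 reads per site. The difference was 0.970 percentage points (95% interval, −2.12 to 3.95; adjusted p = 0.982). It became 0.154 without Space 3 and 1.67 without Space 1. The mismatch repair gene *Msh6* had 2.33% ± 0.883 in the Space samples and 2.25% ± 0.684 in the Ground samples (SD, n = 3) over 49 sites.

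Among sensors and kinases, the difference was between −0.327 and 2.21 percentage points in 8 promoters, and none had an unadjusted p under 0.05. *Atm*, the kinase that answers double-strand breaks, had 0.722%, 2.32%, and 1.33% in the Space samples and 1.55%, 1.49%, and 0.810% in the Ground samples. The groups overlapped, and the difference of 0.175 percentage points (95% interval, −1.25 to 1.37; adjusted p = 0.9998) became −0.257 without Space 2 and −0.0607 without Ground 3. *H2afx*, the histone that is phosphorylated around breaks, had 1.80%, 2.33%, and 1.61% in the Space samples and 1.23%, 1.56%, and 1.49% in the Ground samples. Its groups did not overlap, and the difference was 0.490 percentage points (95% interval, −0.332 to 1.32; adjusted p = 0.941), which became 0.284 without Space 2. *Mre11a*, the nuclease that trims broken ends, had the largest difference of this group, with 6.69%, 0.735%, and 2.81% in the Space samples and 0.784%, 1.18%, and 1.63% in the Ground samples over 5 sites. Space 2 was below all Ground samples.

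In the p53 pathway, 7 promoters were tested, 4 of which had a higher mean in the Space samples, and none had an unadjusted p under 0.05. *Gadd45a*, *Gadd45b*, *Gadd45g*, and *Pmaip1* had levels between 0.520% and 5.28%. *Mdm2*, the ligase that removes p53, had 0.916%, 0.611%, and 1.04% in the Space samples and 1.31%, 1.08%, and 0.609% in the Ground samples over 46 sites. The groups overlapped, and the difference was −0.141 percentage points (95% interval, −0.917 to 0.621; adjusted p = 0.988), which became 0.0132 without Ground 1. *Bax*, which opens the mitochondrial membrane in apoptosis, had 2.74%, 2.37%, and 2.99% in the Space samples and 1.56%, 2.09%, and 0.871% in the Ground samples. Its groups did not overlap, with a difference of 1.20 percentage points (95% interval, −0.249 to 2.58; adjusted p = 0.928). *Trp73*, a relative of p53 that acts in the germline, had 2.39%, 0.935%, and 1.54% in the Space samples and 0.972%, 0.703%, and 1.14% in the Ground samples. The groups overlapped, and the difference of 0.683 percentage points (adjusted p = 0.928) became 0.300 without Space 1 and 1.03 without Space 2. *Trp63*, another relative, had 1 common site, 69103 bp from the TSS, where the level was 90% to 100% in every sample.

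The other sites of these genes, beyond 1000 bp from the TSS, had a wide range of levels. The 456 common sites there were assigned to the gene with the closest TSS, whether or not they lie in that gene. They comprised 263 sites with a mean level under 10%, 143 sites above 90%, and 50 sites between (11.0%, compared with 16.5% of all common sites beyond 1000 bp). A level was obtained for the 21 genes with 3 or more such sites. It was under 10% in 2 genes (14.1% of 17203 genes), above 90% in 7 (28.5%), and between in 12 (57.4%). The 7 genes above 90% were *Bax*, *Prkdc*, *Nbn*, *Xrcc5*, *Apex1*, *Chek2*, and *Mgmt*.

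**Figure D4:**
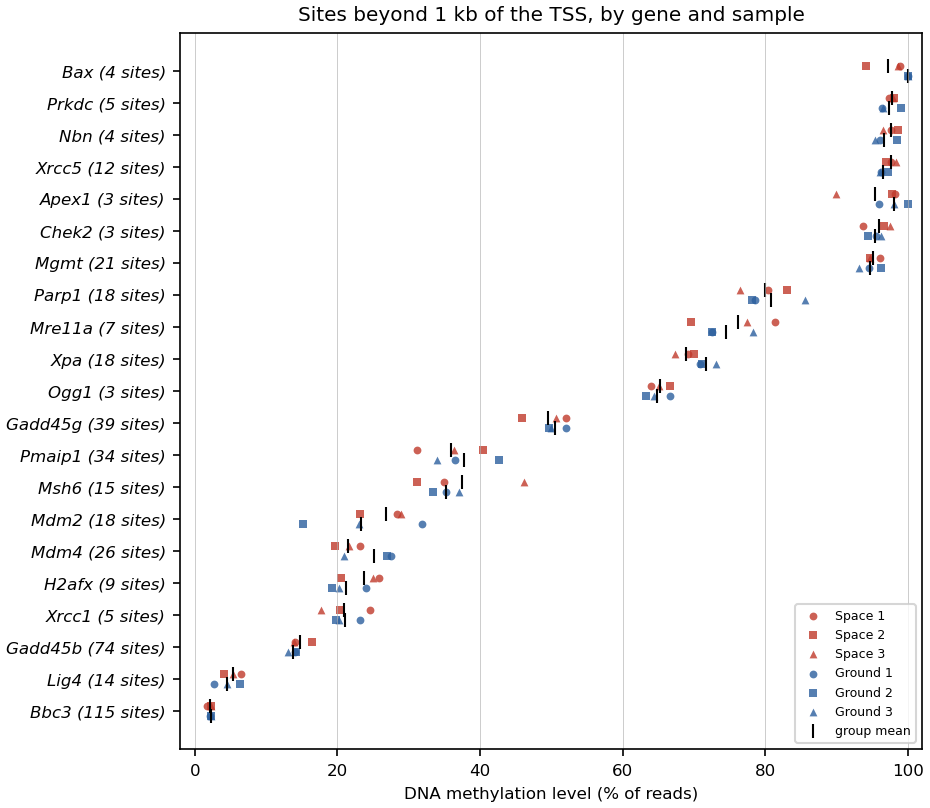
DNA methylation level (percent of reads, x axis) of the sites beyond 1000 bp for the 21 genes with 3 or more such common sites, ordered by mean level. Points are samples and black ticks are means of 3 replicates, and levels run from about 2% (*Bbc3*) to 98.6% (*Bax*), with the widest spread between samples in *Mdm2* (15.2% to 31.8%).

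Low levels beyond 1000 bp were found in *Bbc3* and *Lig4*. *Bbc3*, which encodes the p53 target PUMA, had 0 common sites within 1000 bp but 115 beyond it, 1005 to 9399 bp from the TSS. Its levels were 1.69%, 2.31%, and 2.35% in the Space samples and 2.08%, 2.30%, and 2.26% in the Ground samples, and the groups overlapped. *Lig4* had 5.31% ± 1.16 and 4.55% ± 1.82 (SD, n = 3), and 13 of its 14 sites lay 1246 to 1470 bp downstream. RefSeq lists 3 starts within 848 bases for *Bbc3* and 2 starts 1369 bases apart for *Lig4* in GRCm38.p6, whereas the deposited table gives 1 TSS for each gene.

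Intermediate site levels were found mostly in a few genes. Among the 50 sites between 10% and 90%, 22 belonged to *Pmaip1*, which encodes the p53 target NOXA, 11 to *Gadd45g*, a stress-induced growth arrest gene, and 7 to *Mre11a*. The 7 sites of *Mre11a*, 5882 to 6173 bp from the TSS, had mean levels of 63.6% to 87.4%. In other genes, the intermediate level of the gene was a sum over unmethylated and methylated sites. *Ogg1* had 1 site under 10% and 2 above 90%, and *Mdm2* had 13 under 10%, 3 above 90%, and 2 between.

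The sites beyond 1000 bp showed no difference that passed the test. The test called 0 of 17203 genes (percent called, 0), with a smallest adjusted p of 0.903 among the listed genes. At an unadjusted p under 0.05 it gave 0 of the 21 listed genes and 942 of all genes (5.48%), while edgeR gave 1 and 806, and limma on log2 ratios gave 0 and 870. The mean was higher in the Space samples for 12 of the 21 genes (54.9% of all genes). The median difference was 0.459 percentage points over the 21 genes and 0.238 over all genes. The groups did not overlap at 0 genes with Space above (5.86% of all genes) and at 2 with Space below (3.88%), *Bax* and *Xpa*. With equal weight, the mean over the 21 genes was 57.4% ± 0.646 in the Space samples and 57.4% ± 0.310 in the Ground samples (SD, n = 3).

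The 3 smallest p-values beyond 1000 bp were those of *Bax*, *Mdm4*, and *Xpa*. *Bax* had 98.9%, 94.1%, and 98.6% in the Space samples and 100% in each Ground sample, over 4 sites. Summed over these sites, all of the 56 to 62 reads of each Ground sample were methylated, compared with 64 of 68 to 87 of 88 in Space samples. The samples had 14 to 22 reads per site. The difference of −2.82 percentage points (95% interval, −5.63 to 0.317; adjusted p = 0.903) became −1.28 without Space 2.

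*Mdm4* (ENSMUSG00000054387, TSS at 132958299 on the minus strand of chromosome 1), which holds p53 inactive, had 23.1%, 19.6%, and 21.6% in the Space samples and 27.5%, 27.0%, and 20.99% in the Ground samples. The groups overlapped through Ground 3, and the difference was −3.72 percentage points (95% interval, −7.51 to 0.365; adjusted p = 0.914), which became −5.82 without Ground 3. Its 26 sites comprised 19 under 10%, 6 above 90%, and 1 between. When the site levels were averaged in place of summing their reads, the difference was −0.43. *Xpa* had 69.1%, 70.0%, and 67.4% in the Space samples and 70.9%, 71.1%, and 73.2% in the Ground samples. Its groups did not overlap, and the difference of −2.89 percentage points (95% interval, −7.44 to 1.53; adjusted p = 0.943) became 0.640 when the site levels were averaged and 1.36 with a minimum of 5 reads. *Mdm2* had the largest difference upward, with 28.3%, 23.2%, and 29.0% in the Space samples and 31.8%, 15.2%, and 23.0% in the Ground samples. The Ground samples of *Mdm2* again surrounded the Space samples, and the difference was 3.49 percentage points (95% interval, −3.60 to 11.7; adjusted p = 0.961). Most of its sites were under 10% or above 90%, so its summed level also depends on how the reads were spread over them.

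None of the central genes of the other branches had an unadjusted p under 0.05 at these sites. *Mgmt* had 96.1%, 94.7%, and 94.7% in the Space samples and 94.6%, 96.3%, and 93.2% in the Ground samples over 21 sites, and the groups overlapped. *Parp1* had 80.4%, 83.0%, and 76.5% in the Space samples and 78.6%, 78.2%, and 85.5% in the Ground samples. *Prkdc* had 97.4%, 98.0%, and 97.9% compared with 96.4%, 99.1%, and 96.5%. The groups of all 3 genes overlapped. *H2afx* had 25.9%, 20.5%, and 25% in the Space samples and 24.0%, 19.2%, and 20.3% in the Ground samples, a difference of 2.62 percentage points (95% interval, −2.53 to 8.04), and *Ogg1* had 65.2% ± 1.36 and 64.8% ± 1.71 (SD, n = 3). Of the listed genes, 6 had only 1 or 2 sites beyond 1000 bp, and 5 of these genes had levels of 88.2% to 100%. The other, *Atm*, had 40.9%, 17.6%, and 21.1% in the Space samples and 36.4%, 34.6%, and 33.3% in the Ground samples at 1 site 28552 bp from the TSS, and the groups overlapped through Space 1.

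Levels differed widely with distance from the TSS. The mean level of the sites of the listed genes was 0.902% to 2.22% in each bin from 1000 bp upstream to 1000 bp downstream, in both groups. It was 12.3% ± 0.16 in the Space samples and 12.5% ± 0.631 in the Ground samples (SD, n = 3) from 1000 to 5000 bp downstream, and 69.7% ± 0.774 and 69.3% ± 1.32 at 20000 bp or more downstream. Over all genes, the level at 20000 bp or more downstream was 57.3% and 57.2%. Within 500 bp upstream, the listed genes had 1.26%, 1.76%, and 1.98% in the Space samples and 1.08%, 0.745%, and 0.883% in the Ground samples. All Space samples were above all Ground samples in this bin, which holds 170 sites of 17 genes. From 500 to 1000 bp upstream (50 sites), the direction was the opposite, with 2.11%, 1.34%, and 0.872% in the Space samples and 3.17%, 1.36%, and 2.14% in the Ground samples, and the groups overlapped. In the 500 bp downstream of the TSS, the means were 1.73% ± 0.453 and 1.48% ± 0.349 (SD, n = 3), and from 500 to 1000 bp downstream they were 2.20% ± 0.183 and 1.59% ± 0.157. In the latter bin, all Space samples (2.03% to 2.39%) were also above all Ground samples (1.48% to 1.77%). Over all genes, the bin within 500 bp upstream had 2.39% ± 0.186 and 2.32% ± 0.318 (SD, n = 3). From 500 to 1000 bp downstream, all genes had 2.95% ± 0.195 and 2.86% ± 0.319, and the groups overlapped in both bins. The upstream bin holds most common sites of *Xrcc4*, and the downstream bin holds most of those of *Xrcc1*. The bins therefore partly repeat these promoters, and no bin was tested.

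**Figure D5:**
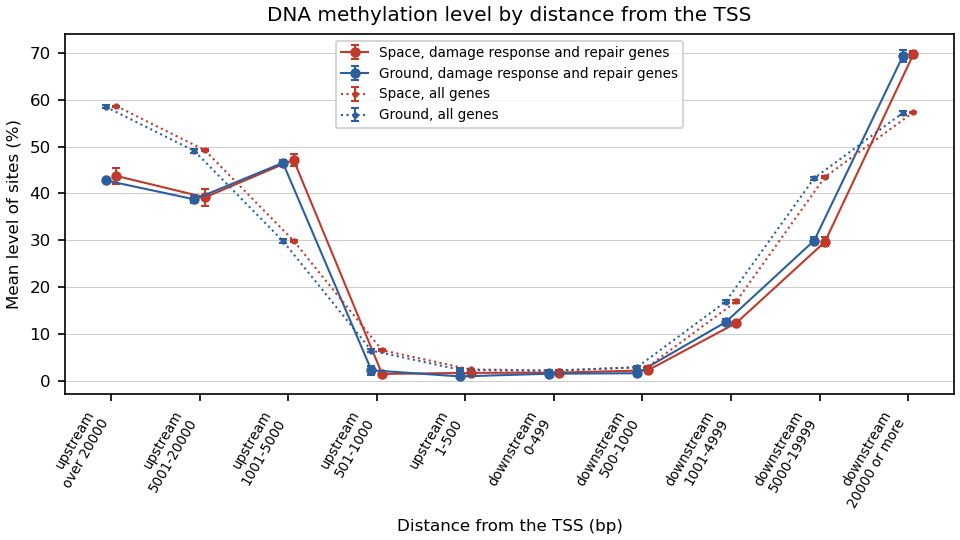
Mean DNA methylation level of common sites (percent, y axis) in bins of distance from the TSS (bp, x axis), with points for the mean and bars for the SD of 3 replicates, for the listed genes (solid lines) and all genes (dotted lines). Levels are at most 2.22% within 1000 bp of the TSS of the listed genes and reach 69.7% and 69.3% far downstream.

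Differences confined to a part of a gene were examined in regions, which are runs of 3 or more common sites no more than 100 bp apart. The test called 0 of 49134 regions (percent called, 0), and 91 of the regions belonged to the listed genes. At an unadjusted p under 0.05, it gave 9 of the 91 regions (9.89%) and 2776 of all regions (5.65%), while edgeR gave 5 and 1994, and limma on log2 ratios gave 7 and 2376. Of the 9 regions, 7 were higher in the Space samples (3.33% of all regions) and 2 were lower (2.32%). The count was 5 without Space 1, beside 2748 of 49053 regions tested, and 5 without Ground 1, beside 3096 of 49069.

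The 5 smallest p-values belonged to regions of *Gadd45b*, *Xrcc4*, *Xrcc1*, *Brca1*, and *Mdm4*, and those of *Xrcc4*, *Xrcc1*, and *Brca1* largely repeat their promoters. The *Gadd45b* region (chr10:80764514-80764667), in a gene that arrests growth under stress, lay upstream, at least 1239 bp from the TSS. Its 15 sites had 3.03%, 1.35%, and 2.02% in the Space samples and 0.645%, 0.225%, and 0.213% in the Ground samples. The groups did not overlap, and the difference was 1.77 percentage points (95% interval, 0.609 to 3.10; adjusted p = 0.864). At the outermost site, these values stood on 2 methylated reads of 42 in Space 1 and 1 of 23 in Space 3, with 0 methylated reads in the other 4 samples. With a minimum of 5 reads, the difference of the region that holds these sites was 0.341.

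The *Mdm4* region (chr1:132952830-132953156), which began 5142 bp downstream of the TSS, had 0.450%, 0.842%, and 1.37% in the Space samples and 3.11%, 1.68%, and 2.16% in the Ground samples over 19 sites. All Ground samples were above all Space samples, and the difference was −1.43 percentage points (95% interval, −2.69 to −0.168; adjusted p = 0.864). RefSeq lists 2 starts for *Mdm4*, 5171 bases apart in GRCm38.p6. The *Xrcc1* region (chr7:24246486-24246727) had 2.69%, 2.92%, and 2.35% in the Space samples and 0.479%, 1.62%, and 1.47% in the Ground samples (adjusted p = 0.864). The *Xrcc4* region (chr13:90237655-90238063) and the *Brca1* region (chr11:101442468-101442735) hold the same sites as their promoters (adjusted p = 0.864 for both).

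At single sites, a difference of more than 20 percentage points was found at 2 of the 1285 common sites of the listed genes. Of these, 1 was higher in the Space samples (0.113% of all common sites) and 1 was lower (0.0826%). The first is at position 117513746 of chromosome 10, 32916 bp downstream of the TSS of *Mdm2* (ENSMUSG00000020184), and had 81.8%, 68.8%, and 75.0% in the Space samples and 70.0%, 43.5%, and 48.1% in the Ground samples. The groups overlapped, as Ground 1 was above Space 2, and each value stood on 22 to 32 reads. The site lies in a stretch of 3 sites with unequal levels. Of 166 reads over the 6 samples at each site, 76, 108, and 1 were methylated at 32928, 32916, and 32883 bp. The stretch differed by 11.1 percentage points (95% interval, −3.66 to 23.2).

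The second site is 9241 bp downstream of the TSS of *Pmaip1* and had 16.7%, 53.3%, and 38.1% in the Space samples and 65.0%, 73.7%, and 30.8% in the Ground samples, on 13 to 21 reads. The groups overlapped, and the replicates within each group were more than 30 percentage points apart. The number of such sites depended on the depth required, with 13 at a minimum of 5 reads and 1 at a minimum of 20 reads. The share over all sites at these minimums is not given here, so the change cannot be read as particular to these genes.

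Further genes of these pathways, 133 genes in 9 lists, were examined in the same tests. Of 108 promoters measured, 107 averaged under 10%, and at an unadjusted p under 0.05, 7 had a higher mean in the Space samples and 3 a lower one (5.31% of all promoters in either direction), with 0 calls after adjustment and a median difference of 0.0984 percentage points. Beyond 1000 bp, 70 genes were measured, of which, at an unadjusted p under 0.05, 2 had a higher mean and 2 a lower one (5.48% of all genes in either direction), again with 0 calls after adjustment, and the median difference was −0.0569. The smallest p-values in both tests were those of *Ppm1d*, a phosphatase that ends the damage response, with differences of −1.79 percentage points in the promoter (adjusted p = 0.912) and 5.55 beyond 1000 bp (adjusted p = 0.897). Its 4 sites beyond 1000 bp had 9.03%, 0%, and 7.61% in the Space samples and 0% in each Ground sample, so the groups overlapped. By list, the number of promoters with an unadjusted p under 0.05, beside 5.31% of all promoters, was between 0 of 10 in end joining and 3 of 13 in nucleotide excision repair. No list was compared with that share by a test.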

How the data were processed

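DNA from 3 Space GS cell and 3 Ground GS cell samples was analysed by RRBS (Zymo-Seq RRBS kit). The submitters' processing notes name Trim Galore, Bismark 0.24.2, methylKit, and the build mm39. The authors deposited a single table for all samples, in which a CpG site has its coverage (a count of reads), its methylated percent, and the closest TSS. Both strands of a CpG share 1 row. Removal of duplicated reads is not given in the sources used here, and copies would narrow the spread expected from sampling. Where DBA/2 alleles differ from the reference, a level may shift by allele, which was not tested.

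Coverage was multiplied by percent to give methylated reads, which lay at most 0.000266 from whole numbers. Positions are the start column of the table, since 100% of 15889 sites near genes with an unmoved TSS had a CG in GRCm38 when it was read as 1-based. Reads were summed over common sites (at least 10 reads in all 6 samples) per gene within and beyond 1000 bp of the TSS and per region. The quasi-binomial test used Pearson dispersions between replicates, moderated over all features by limma's squeezeVar (limma 3.58.1, R 4.3.3), F tests, and Benjamini-Hochberg adjustment over all features, with a threshold of 0.05. Intervals of differences (95%) come from reads pooled over the 3 samples of each group and the moderated dispersion, so their center can differ from the difference of replicate means. The comparison was also run with edgeR 4.0.16 on methylated and unmethylated counts, with limma on log2 ratios (2 reads added to each), with other coverage minimums, windows, and site numbers, with a replicate block, and without each replicate in turn. Other tools were the R package data.table (version 1.17.8), pandas 2.3.3, and matplotlib 3.10.9 (Python 3.11.15).

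The genes and lists were chosen with earlier results of these data known. Values in each sample are given for central genes of each branch, the 3 smallest p-values near and beyond 1000 bp, the 5 smallest among regions, and the largest differences. *Rad54l*, *Bbc3*, and *Mre11a* were named after their values were seen, as were other genes given as examples.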

Additional observations from a re-analysis of the deposited data

How the results depend on the processing

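The tests of promoters, of sites beyond 1000 bp, and of regions gave 0 calls under all alternatives, and the lowest of the smallest adjusted p-values over all features was 0.216, 0.0767, and 0.178. Of 204 alternative values for 16 named differences, 197 kept their direction, and 7 reversed. The other tests, including edgeR, limma on log2 ratios, and the replicate block, use the same difference of means. Their direction therefore could not change, and only their p-values could. Values from averaged site levels had no p-value. No other alternative brought a named difference to an adjusted p under 0.05. The reversed values were 1.36 for *Xpa* beyond 1000 bp with a minimum of 5 reads and 0.640 with site levels averaged, and −0.126 for the *Atm* promoter and 0.195 for the *Ogg1* promoter with a minimum of 20 reads. When each replicate was left out in turn, the *Atm* promoter ranged from −0.257 to 0.543 and the *Mdm2* promoter from −0.335 to 0.0132, the last of these without Ground 1. The mean difference of the listed genes beyond 1000 bp was 0.625 percentage points with a minimum of 5 reads, compared with −0.0104, and that of their promoters ranged from 0.213 to 0.604 over the alternatives. The number of sites differing by more than 20 percentage points was 2, and became 1 with pooled reads, 13 with a minimum of 5 reads, 1 with a minimum of 20 reads, and 0 to 3 without single replicates (0 without Ground 2, and 3 without Space 3). A lower minimum adds shallow sites, and the other causes were not tested. These counts have no share over all sites beside them.

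Whether the numbers in the sample titles pair the samples was not settled. In the sample descriptions, each Space sample also carries a number directly before that of the same-numbered Ground sample. What these numbers stand for is not known here. The deviations of same-numbered samples had correlations of 0.00988 to 0.0438, compared with −0.0367 to 0.0146 for differently numbered samples. The same-numbered correlations were all positive and tended to be higher. However, all correlations were small and the ranges overlapped, so they neither show nor exclude pairing. The main tests and intervals used no pairing. A replicate block gave 0 calls in each test. It gave 1052 promoters at an unadjusted p under 0.05, 5 of them in listed genes, compared with 763 and 3 without it. The block leaves the mean differences of the listed genes unchanged by arithmetic, so these are no check on pairing.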
